A study of Mus musculus with 6 samples.

Results

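The 2-oxoglutarate dioxygenases that act on chromatin, RNA and protein oxygen sensors were described here in MC3T3-E1 cells, a pre-osteoblast line derived from mouse calvaria, given microparticles (MPs) of an α-ketoglutarate (AKG, also called 2-oxoglutarate) polymer. The genes were chosen by name: 46 dioxygenases of the TET, KDM/JmjC, EGLN and ALKBH classes and a few related enzymes, with the collagen hydroxylases left out. Of these, 45 were listed among the 26187 genes of the deposited tables. Tmlhe was not analysed here. In the PAKG group, cells in osteoconductive (OC) medium were kept for 2 days with 30 μg/mL of PAKG–8diol–PEG(S) MPs, and in the OC group cells stayed in the same medium with no MPs, so ascorbic acid and β-glycerophosphate were shared by both groups. Poly(A) RNA was sequenced from 3 samples per group. The model is 1 cell line. By its methods the study ran its cell work in triplicate and repeated it, but neither they nor the labels say whether the 3 RNA samples of a group are wells of 1 plate or separate repeats. Every p-value here reflects just the variation among these 6 libraries, possibly only technical variation.

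These enzymes use iron, molecular oxygen and 2-oxoglutarate as a co-substrate to hydroxylate their target, and release succinate. TET enzymes oxidise 5-methylcytosine in DNA, JmjC-domain KDM enzymes remove methyl groups from histone lysines, ALKBH enzymes and Fto demethylate nucleic acids or proteins, and the EGLN prolyl hydroxylases and Hif1an mark hypoxia-inducible factor (HIF) when oxygen is present. In the osteoblast lineage, several KDM enzymes are known for acting at differentiation genes. The comparison asked whether transcript levels of the enzymes that use AKG differed between cells with and without AKG-based MPs. No library came from cells given MPs of another polymer, so AKG and the particles themselves cannot be told apart. Protein, enzyme activity, DNA methylation and histone marks were not analysed here.

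Upstream sequence is shown for Kdm5b, the called gene that has an entry in the RefSeq promoter table, and for the 3 EGLN hydroxylases, because Egln3 is a known HIF target gene and the HIF target list is described below. Each run holds the 250 bases upstream of the annotated start on the gene's own strand (RefSeq, GRCm38.p6), at chr1:134559928-134560177 for Kdm5b (plus strand), chr8:124949255-124949504 for Egln1, chr7:27166803-27167052 for Egln2 and chr12:54203875-54204124 for Egln3 (all minus strand; Egln2 has a further entry, not shown). Capitals mark the HIF core motif ACGTG or GCGTG on either strand (CACGT or CACGC when it lies on the other strand).
Kdm5b: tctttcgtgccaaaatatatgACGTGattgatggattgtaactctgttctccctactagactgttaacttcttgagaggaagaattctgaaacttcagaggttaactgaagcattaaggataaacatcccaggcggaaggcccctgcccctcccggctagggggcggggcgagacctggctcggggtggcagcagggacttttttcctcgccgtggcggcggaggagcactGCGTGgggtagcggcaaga
Egln1: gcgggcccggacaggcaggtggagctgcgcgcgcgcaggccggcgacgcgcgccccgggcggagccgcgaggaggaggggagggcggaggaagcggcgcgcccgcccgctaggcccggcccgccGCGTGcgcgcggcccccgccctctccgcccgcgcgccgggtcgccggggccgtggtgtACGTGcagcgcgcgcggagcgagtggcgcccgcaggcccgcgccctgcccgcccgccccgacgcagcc
Egln2: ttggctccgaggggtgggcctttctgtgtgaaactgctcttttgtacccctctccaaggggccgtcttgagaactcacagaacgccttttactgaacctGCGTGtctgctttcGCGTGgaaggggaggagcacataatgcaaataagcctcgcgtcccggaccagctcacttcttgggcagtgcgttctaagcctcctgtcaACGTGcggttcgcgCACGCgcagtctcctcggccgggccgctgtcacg
Egln3: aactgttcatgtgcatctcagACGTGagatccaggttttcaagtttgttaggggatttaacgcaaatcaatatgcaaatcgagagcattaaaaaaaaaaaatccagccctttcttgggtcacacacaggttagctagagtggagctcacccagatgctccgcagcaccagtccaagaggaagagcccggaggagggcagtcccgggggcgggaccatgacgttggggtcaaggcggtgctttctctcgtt
The motif occurred 4 times upstream of Egln2, 2 times each upstream of Kdm5b and Egln1, and 1 time upstream of Egln3. Of the 37 members with an entry, 21 (56.8%) held it at least once. Counted over entries, since some genes have several, 25 of 47 member entries (53.2%) and 12679 of all 32851 entries (38.6%) held it. A match describes the letters of the sequence only.

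The deposited values were FPKM (fragments scaled to transcript length and to the fragments mapped in the library), which summed to between 289675.9 and 310581.7 per PAKG library and between 295863.6 and 325818.2 per OC library. Depth was roughly estimated from the low values, which matched whole fragments only weakly. It came to 33200000 to 43000000 fragments in PAKG libraries and 33000000 to 37900000 in OC libraries. By that estimate 1 fragment would give a 1 kb transcript 0.0233 to 0.0303 FPKM. Of 8 osteoblast-lineage markers, all were listed; 6 rose, 1 fell (Spp1, osteopontin) and Col1a2 had an adjusted p of 0.0531 in limma (0.0069 with the replicate block explained below). Of 4 endothelial markers 2 were listed, and both stayed at or under 0.03 FPKM. Of 5 macrophage and blood markers 3 were listed, with sums of 0.62 to 0.98 FPKM in PAKG libraries and 0.62 to 0.7 FPKM in OC libraries: Ptprc was at or under 0.01 FPKM, Cd68 at 0.34 to 0.69 and 0.52 to 0.63 FPKM in PAKG and OC libraries, and Csf1r at 0.22 to 0.29 FPKM in PAKG libraries and 0.06 to 0.12 FPKM in OC libraries, without overlap. Their part in the results was not tested. Adipocyte markers summed to at most 0.04 FPKM in PAKG libraries and to 0.02 to 1.2 FPKM in OC libraries, the highest being OC replicate 3. A further 2 lists moved with the groups: all 10 proliferation markers fell, with sums of 312 to 330 FPKM in PAKG libraries and 507 to 509 FPKM in OC libraries, and all 3 tested chondrocyte markers rose, with sums of 59.9 to 62.5 and 18.7 to 21.0 FPKM in PAKG and OC libraries. Of 5 chondrocyte markers 4 were listed, and Col10a1, at or under 0.03 FPKM in both groups, was not tested. In bulk RNA, fewer cells of a type and less RNA per cell cannot be told apart.

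Most of the listed dioxygenase genes were at low to moderate levels in these cells. The highest was Fto (ENSMUSG00000055932, chromosome 8, 91313525 to 91668439), an RNA demethylase, with 22.07, 24.75 and 22.84 FPKM in PAKG libraries and 21.00, 22.32 and 20.05 FPKM in OC libraries. Its mean of 22.2 FPKM was at the 91.4 percentile of all listed genes. Next came Egln2, Asph and Kdm4a, with means over all 6 libraries of 20.9, 16.2 and 15.6 FPKM. The testis-enriched Kdm4d was at 0.00 to 0.04 FPKM, at the limit of what 2 decimals and this depth resolve. Tet2 and Hr were the other 2 genes below the filter of a mean of 0.5 FPKM, which left 42 members for the test across 12590 genes.

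**Figure D1:**
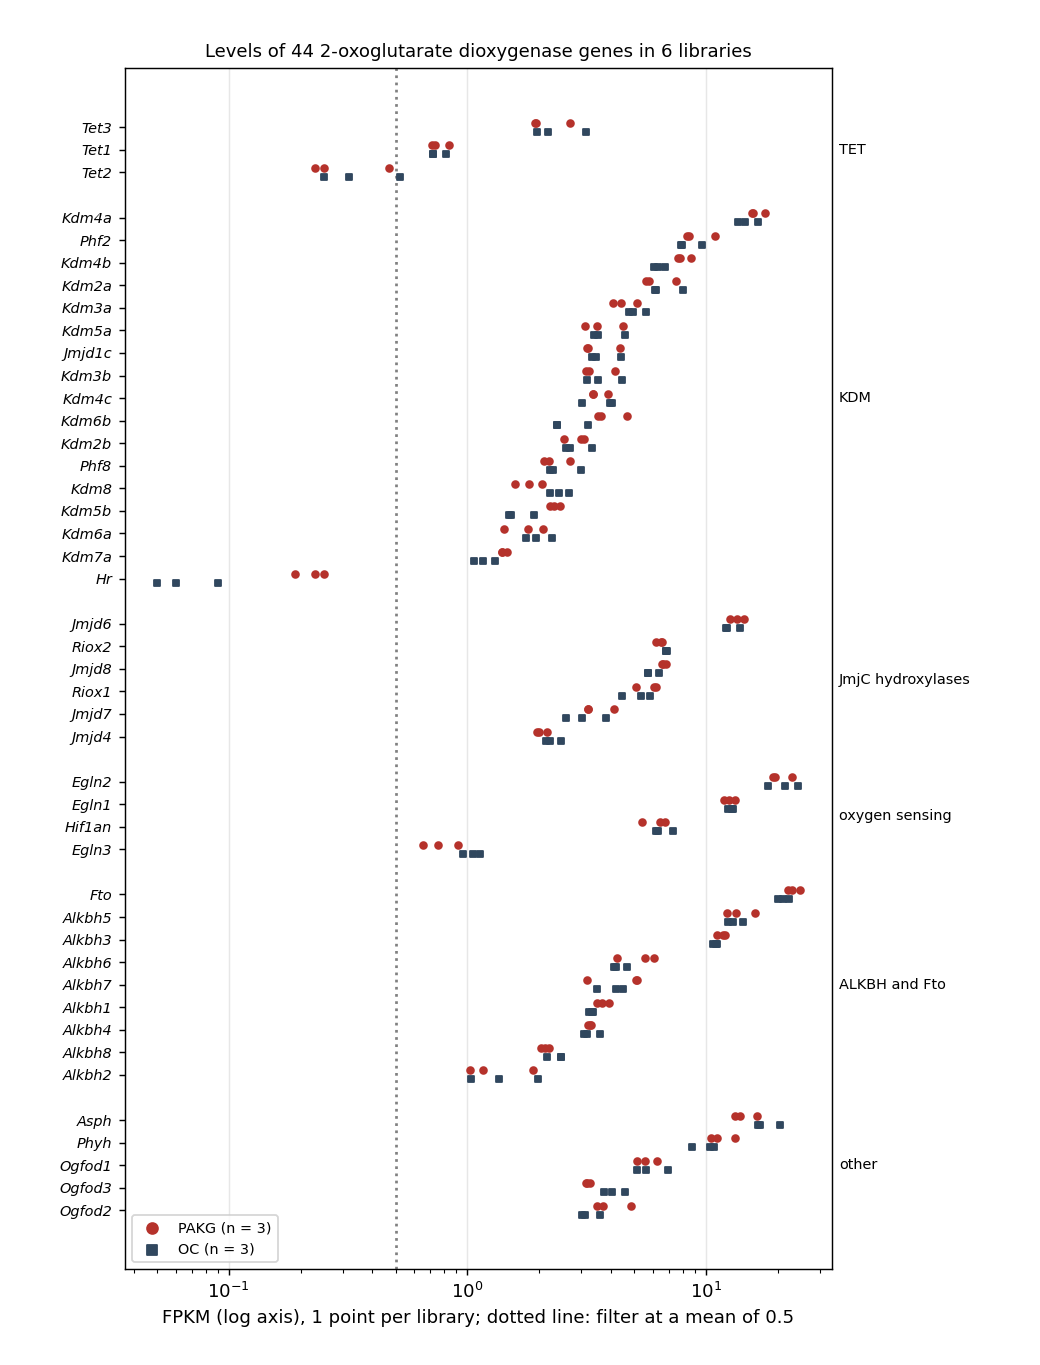
FPKM (log axis) of 44 dioxygenase genes in each of 3 PAKG libraries (red circles) and 3 OC libraries (dark squares), grouped by class and ordered by mean level; Kdm4d is left out because several of its values are 0. Levels differ widely between genes of a class, whereas the PAKG and OC points of most genes overlap.

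The dioxygenases as a group differed little between PAKG and OC. Across the 42 tested members the log2 fold change (PAKG over OC, of FPKM + 0.1) ran from -0.41 to 0.56, with a median of -0.015 against -0.032 over all genes tested. Positive values were found for 20 members and negative values for 22. The median size of the change was 0.13 in the members and 0.16 in all genes, and 31 members (73.8%) changed by less than 0.2, against 58.0% of all genes. The median standard error (SE) was 0.13 in the members and 0.11 in all genes, so the median change of a member was as large as the median error.

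With limma on log2(FPKM + 0.1) and Benjamini-Hochberg adjustment over all genes, 2 of 42 members passed an adjusted p of 0.05, both of them higher in PAKG (Kdm4b and Kdm5b), where 14.7% of all genes passed (5.97% higher and 8.73% lower). No member was changed at least 2-fold as well, a pair of thresholds that 1.45% of all genes met. At an unadjusted p under 0.05 there were 7 members, with 28.8% of all genes. The replicate numbers paired the libraries across groups, most clearly for replicate 2. With the number as a block 6 members passed, 4 higher (Kdm4b, Kdm5b, Kdm6b, Ogfod2) and 2 lower (Asph, Ogfod3), where 29.5% of all genes did (12.3% higher and 17.1% lower). Both shares of the members were below those of all genes, and no test was made of that difference. When each library was rescaled to a common total (TPM), no member passed without the block, where 13.0% of all genes did (6.92% higher and 6.07% lower), though 7 passed with it, where 26.5% of all genes did. Over all genes that scaling gave 871 higher and 764 lower calls, in place of 751 and 1099. PAKG and OC libraries did not overlap for 12 members (7 above, 5 below), against 33.4% of all genes.

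**Figure D2:**
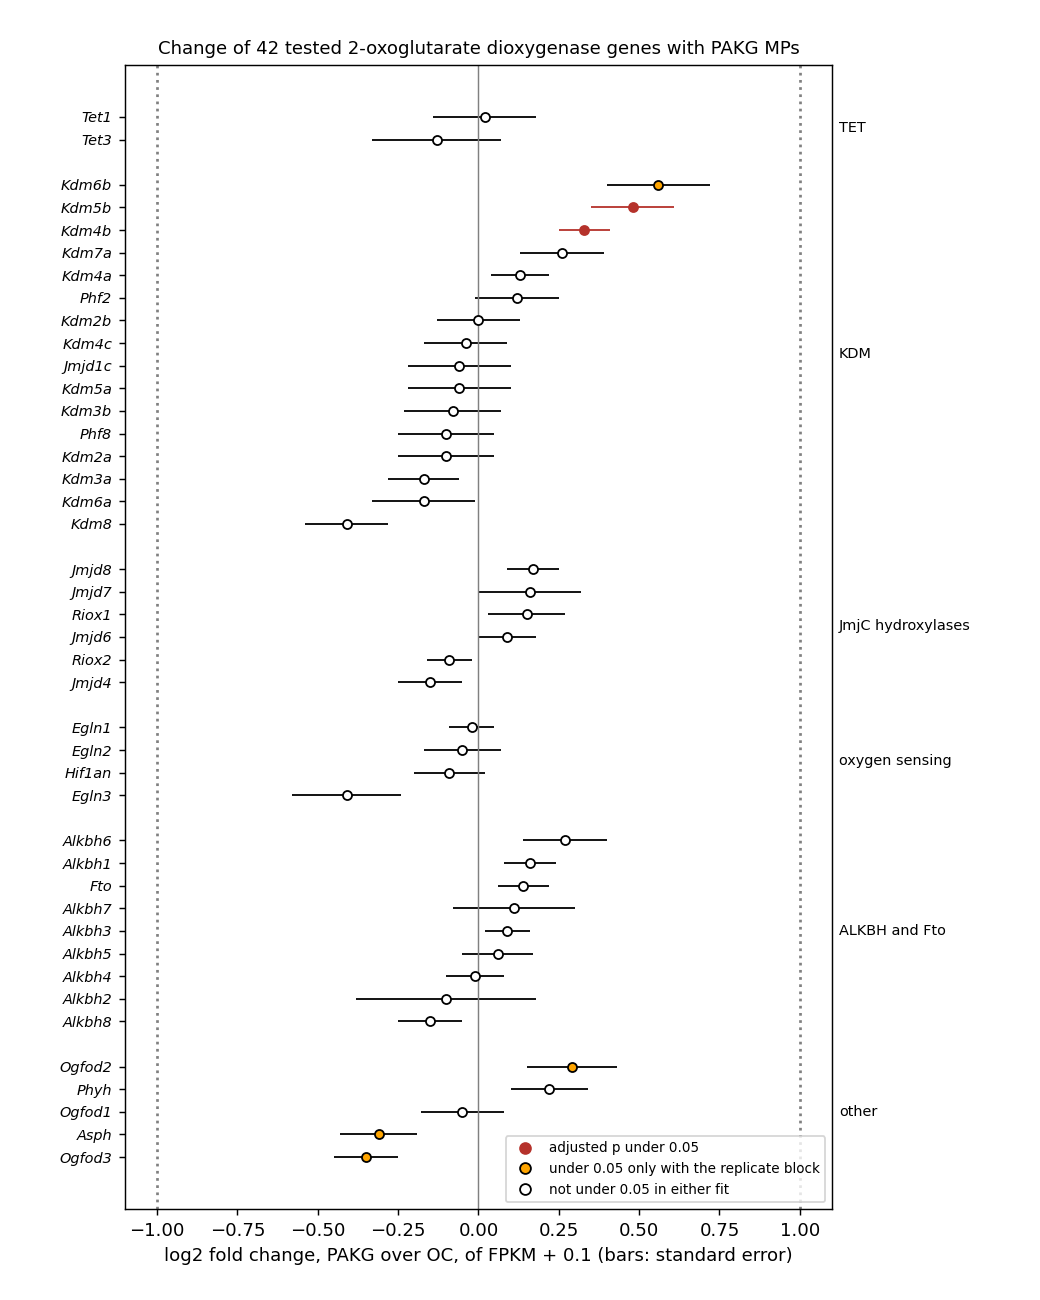
Log2 fold change of FPKM + 0.1, PAKG over OC, with its standard error (SE, bars) for the 42 tested members by class; filled red points passed an adjusted p of 0.05 in limma, orange points passed only with the replicate block, and dotted lines mark a 2-fold change. Most points lie within 0.2 of zero, and the KDM class holds the 3 largest positive values.

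Among the TET genes, whose products start the removal of methyl groups from DNA, Tet3 was the highest (ENSMUSG00000034832, chromosome 6, 83362373 to 83459084). It had 1.94, 2.70 and 1.93 FPKM in PAKG libraries and 1.96, 3.13 and 2.18 FPKM in OC libraries. The groups overlapped, with replicate 2 the highest in both (log2 fold change -0.13, SE 0.20, limma adjusted p = 0.729). Tet1 was at 0.71 to 0.84 FPKM in PAKG libraries and 0.72 to 0.81 FPKM in OC libraries, and Tet2 at 0.23 to 0.47 and 0.25 to 0.52 FPKM. Tet3 took 67.0% ± 0.493 of the summed TET FPKM in PAKG libraries and 68.3% ± 1.71 in OC libraries (SD, n = 3), so the make-up of the family overlapped between groups.

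The KDM class held 18 genes, of which 16 were tested. It held both members called without the block, where 14.7% of all genes passed. Kdm4b (ENSMUSG00000024201, chromosome 17, 56326062 to 56402870) encodes a demethylase of histone H3 trimethylated at lysine 9. Its level was 7.61, 8.66 and 7.81 FPKM in PAKG libraries and 6.27, 6.74 and 6.05 FPKM in OC libraries. The lowest PAKG value was above the highest OC value. The gene rose 1.26-fold (log2 fold change 0.33, SE 0.08, limma adjusted p = 0.0364, and 0.00822 with the replicate block). When 1 library was left out, the adjusted p was 0.0457 without OC replicate 2 and 0.0579 to 0.138 without any of the other 5.

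Kdm5b (ENSMUSG00000042207, chromosome 1, 134560171 to 134635285) encodes a demethylase of trimethylated lysine 4 of histone H3, a mark of active promoters. It had 2.31, 2.45 and 2.22 FPKM in PAKG libraries and 1.53, 1.91 and 1.49 FPKM in OC libraries. Here too the groups did not overlap. The rise was 1.40-fold (log2 fold change 0.48, SE 0.13, limma adjusted p = 0.0406, and 0.0148 with the block). The adjusted p stayed under 0.05 in 1 of the 6 fits that leave out a library, at 0.0233 without OC replicate 2 and 0.0733 to 0.142 otherwise. Rescaled to TPM without the block, Kdm4b and Kdm5b had adjusted p of 0.0688 and 0.067 in limma, with log2 fold changes of 0.38 and 0.53.

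Kdm6b (ENSMUSG00000018476, chromosome 11, 69398508 to 69413675), which removes methyl groups from lysine 27 of histone H3 and is known as Jmjd3, had the largest positive log2 fold change of the tested members. Its level was 3.52, 4.65 and 3.62 FPKM in PAKG libraries and 2.38, 3.19 and 2.37 FPKM in OC libraries. Replicate 2 was the highest in each group, and the groups did not overlap. The log2 fold change was 0.56 (SE 0.16), with a limma adjusted p of 0.0531, and of 0.00325 with the block, in which replicate 2 has its own level. Without replicate 2 of both groups the value was 0.57 and the adjusted p 0.00862. When 1 library was left out, the limma adjusted p was 0.0266 without OC replicate 2 and 0.079 to 0.173 otherwise. Rescaled to TPM without the block, it was 0.0772. Its relative Kdm6a, on chromosome X, was at 1.43 to 2.08 FPKM in PAKG libraries and 1.76 to 2.27 FPKM in OC libraries (log2 fold change -0.17, SE 0.16, limma adjusted p = 0.543).

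Within families the balance of paralogs differed between the groups where 1 paralog was higher. Kdm6b made up 71.1%, 69.1% and 66.9% of the summed FPKM of Kdm6a and Kdm6b in PAKG libraries, against 57.5%, 58.4% and 55.0% in OC libraries. Kdm5b made up 42.7%, 35.4% and 38.8% of the sum of Kdm5a and Kdm5b in PAKG libraries, against 31.1%, 29.4% and 29.7% in OC libraries. Kdm4b made up 28.6%, 28.6% and 29.1% of the Kdm4 sum in PAKG libraries, against 26.3%, 24.7% and 25.6% in OC libraries. None of these 3 shares overlapped between groups, and being ratios within a library they do not move with the scaling of libraries. The FPKM of these 3 genes did not overlap either, nor did that of 33.4% of all genes, so the shares are no separate support. Kdm5c, a further JmjC enzyme that is not among the 46, was at 12.64, 16.46 and 12.66 FPKM in PAKG libraries and 12.61, 16.35 and 12.19 FPKM in OC libraries, above both Kdm5a and Kdm5b. The choice of the KDM5 pair for this view was made after the values were seen.

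**Figure D3:**
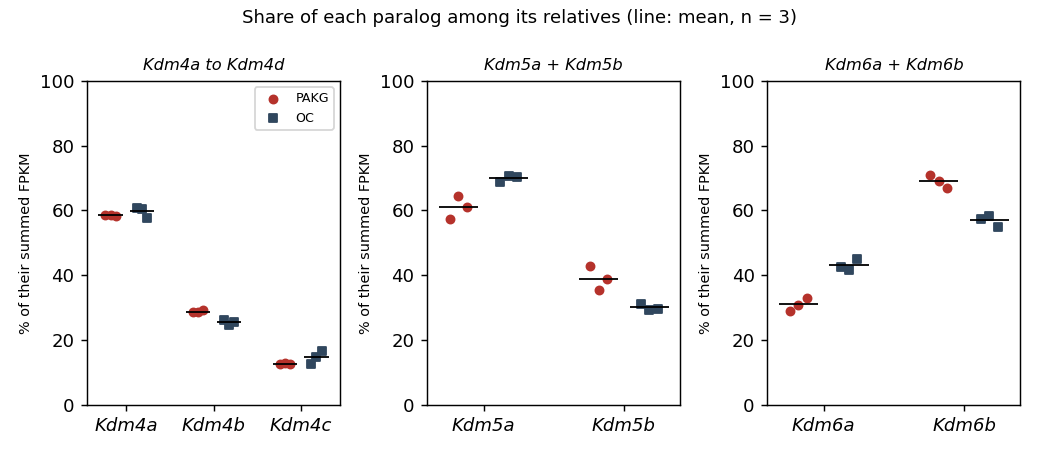
Percent of the summed FPKM of related demethylase genes taken by each gene, in 3 PAKG (red circles) and 3 OC (dark squares) libraries, with the mean as a line; the panels are Kdm4a to Kdm4d (Kdm4d, at most 0.132%, not drawn), Kdm5a with Kdm5b, and Kdm6a with Kdm6b. The PAKG points of Kdm4b, Kdm5b and Kdm6b all lie above the OC points, at means of 28.7%, 39.0% and 69.0% in PAKG libraries and 25.5%, 30.1% and 57.0% in OC libraries.

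The highest KDM gene was Kdm4a (ENSMUSG00000033326, chromosome 4, 118136957 to 118180043), also a demethylase of lysine 9 and lysine 36 of histone H3. It had 15.60, 17.73 and 15.68 FPKM in PAKG libraries and 14.51, 16.55 and 13.63 FPKM in OC libraries, and the groups overlapped (log2 fold change 0.13, SE 0.09, limma adjusted p = 0.407). Kdm7a, which acts on lysine 9 and lysine 27 of histone H3, was at 1.40 to 1.47 FPKM in PAKG libraries and 1.07 to 1.30 FPKM in OC libraries, without overlap, but did not pass (log2 fold change 0.26, limma adjusted p = 0.229). Kdm8 was the 1 KDM gene with every PAKG library below every OC library: 1.81, 2.05 and 1.58 FPKM in PAKG libraries and 2.67, 2.21 and 2.43 FPKM in OC libraries. Its log2 fold change was -0.41 (SE 0.13) and did not pass in limma, with an adjusted p of 0.0777, and 0.0545 with the block. Without replicate 2 of both groups it was -0.56, with an adjusted p of 0.0248. The remaining 10 tested genes of the class, Kdm2a, Kdm2b, Kdm3a, Kdm3b, Jmjd1c, Kdm4c, Kdm5a, Phf2, Phf8 and the Kdm6a already given, all overlapped between groups and passed in neither fit.

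Hr, the hairless corepressor with a JmjC domain, fell below the filter, and its values were 0.23, 0.25 and 0.19 FPKM in PAKG libraries and 0.05, 0.09 and 0.06 FPKM in OC libraries. The groups were well apart at a level near the pseudocount. Tested without a filter over 25742 genes, where 5.15% passed (2.11% higher and 3.03% lower), its log2 fold change was 0.96 and its limma adjusted p 0.0468. It was the 1 member that passed in that fit.

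The JmjC protein hydroxylases modify ribosomal proteins, splicing factors and other proteins in place of histone lysines. None of the 6 passed in either fit, where 14.7% of all genes passed without the replicate block and 29.5% with it. Jmjd6, a lysine hydroxylase of splicing factors, was the highest (ENSMUSG00000056962, chromosome 11, 116837432 to 116843449), with 14.42, 12.60 and 13.52 FPKM in PAKG libraries and 13.92, 12.21 and 12.09 FPKM in OC libraries. The groups overlapped (log2 fold change 0.09, SE 0.09, limma adjusted p = 0.574). Jmjd8 lay above OC in every PAKG library (6.52 to 6.82 against 5.69 to 6.38 FPKM) and Riox2, a ribosomal protein histidine hydroxylase, lay below it (6.20 to 6.55 against 6.81 to 6.89 FPKM). Their log2 fold changes were 0.17 and -0.09, each within about 2 standard errors of zero (0.08 and 0.07). All 6 overlap a neighbour in the annotation, so their values are uncertain to different degrees. Of the exonic bases of Jmjd7, 66.7% lie in Gm28042 on the same strand. On the opposite strand, 39.3% of those of Jmjd8 face Stub1, which averaged 75.8 FPKM, 31.9% of those of Riox1 face Gm26571, and 22.4% of those of Riox2 face Crybg3, which averaged 1.6 FPKM. For Jmjd4 (opposite Snap47) and Jmjd6 (opposite Mettl23) the shares were 4.31% and 3.66%.

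Of the oxygen sensors, Egln2 was the highest (ENSMUSG00000058709, chromosome 7, 27158658 to 27166802). It had 23.00, 19.40 and 19.15 FPKM in PAKG libraries and 24.31, 18.18 and 21.40 FPKM in OC libraries, so the groups overlapped across their whole range (log2 fold change -0.05, SE 0.12, limma adjusted p = 0.84). Egln1, the main hydroxylase of HIF at normal oxygen, was at 11.94 to 13.22 FPKM in PAKG libraries and 12.35 to 12.99 FPKM in OC libraries. Hif1an, the asparagine hydroxylase of HIF, was at 5.40 to 6.72 and 6.17 to 7.29 FPKM in PAKG and OC libraries. Its sign and that of Egln3 were negative in all scalings, whereas that of Egln1 (-0.02) turned with the scaling.

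Egln3 (ENSMUSG00000035105, chromosome 12, 54178981 to 54203860) was far lower than its relatives and the 1 sensor whose groups did not overlap. Its level was 0.65, 0.75 and 0.91 FPKM in PAKG libraries and 1.06, 0.96 and 1.13 FPKM in OC libraries. The log2 fold change was -0.41 (SE 0.17) and did not pass in limma, with an adjusted p of 0.162, and 0.0946 with the block. It contributed 2.3% ± 0.517 of the summed EGLN FPKM in PAKG libraries and 3.0% ± 0.236 in OC libraries (SD, n = 3), while Egln2 contributed 60.6% and 60.5%.

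None of the 9 ALKBH class genes passed in either fit, where 14.7% of all genes passed without the replicate block and 29.5% with it. For Fto the log2 difference was 0.14 (SE 0.08, limma adjusted p = 0.29), and its share of the class was 33.7% ± 1.66 in PAKG libraries and 33.0% ± 1.38 in OC libraries (SD, n = 3). Alkbh5, the other demethylase of N6-methyladenosine (m6A) in RNA, was at 12.21 to 16.02 FPKM in PAKG libraries and 12.37 to 14.29 FPKM in OC libraries. Alkbh1 and Alkbh3, which repair or demethylate DNA and RNA, lay above OC in every PAKG library (3.51 to 3.92 against 3.22 to 3.35 FPKM, and 11.15 to 11.99 against 10.67 to 11.10 FPKM), by log2 fold changes of 0.16 and 0.09. Alkbh6 had the largest positive value of the class, 0.27 (SE 0.13, limma adjusted p = 0.24, and 0.0698 with the block). The share of Alkbh8, a tRNA wobble-base modifier, was 3.07% ± 0.179 in PAKG libraries and 3.69% ± 0.296 in OC libraries (SD, n = 3), without overlap, though its FPKM overlapped (2.03 to 2.19 and 2.16 to 2.48 FPKM). Alkbh2, Alkbh4 and Alkbh7 overlapped between groups. Of the exonic bases of Alkbh2, 29.5% lie opposite Usp30, which averaged 3.57 FPKM.

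The remaining dioxygenases held the 2 members that were lower with the replicate block, Asph and Ogfod3. Asph (ENSMUSG00000028207, chromosome 4, 9448069 to 9669344) encodes the aspartate and asparagine hydroxylase of EGF-like domains, and the same locus also makes the calcium-handling proteins junctin and junctate. It had 13.22, 16.43 and 13.88 FPKM in PAKG libraries and 16.50, 20.51 and 16.90 FPKM in OC libraries. In each replicate number the PAKG library was the lower, and the highest PAKG library was just under the lowest OC library. The log2 fold change was -0.31 (SE 0.12), with a limma adjusted p of 0.128, and of 0.00625 with the block. The FPKM are per gene, so the isoforms of this locus were not told apart.

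Ogfod3 (ENSMUSG00000025169, chromosome 11, 121177591 to 121204711) had 3.14, 3.28 and 3.18 FPKM in PAKG libraries and 3.73, 4.05 and 4.57 FPKM in OC libraries, without overlap. Its log2 fold change was -0.35 (SE 0.10, limma adjusted p = 0.0512, and 0.024 with the block). Of its exonic bases, 17.0% lie opposite Hexdc, and the use of strand in counting is not given in the sources used here. Ogfod2 (ENSMUSG00000023707, chromosome 5, 124112297 to 124115483) had 4.87, 3.48 and 3.70 FPKM in PAKG libraries and 3.60, 3.03 and 3.10 FPKM in OC libraries. The groups overlapped, but within each replicate number the PAKG library was the higher (log2 fold change 0.29, SE 0.14, limma adjusted p = 0.226, and 0.0355 with the block). Phyh, the peroxisomal phytanoyl-CoA hydroxylase, was at 10.46 to 13.20 FPKM in PAKG libraries and 8.73 to 10.79 FPKM in OC libraries (log2 fold change 0.22, limma adjusted p = 0.275). Ogfod1, a prolyl hydroxylase of the ribosomal protein Rps23, overlapped as well, at 5.14 to 6.24 and 5.14 to 6.92 FPKM.

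**Figure D4:**
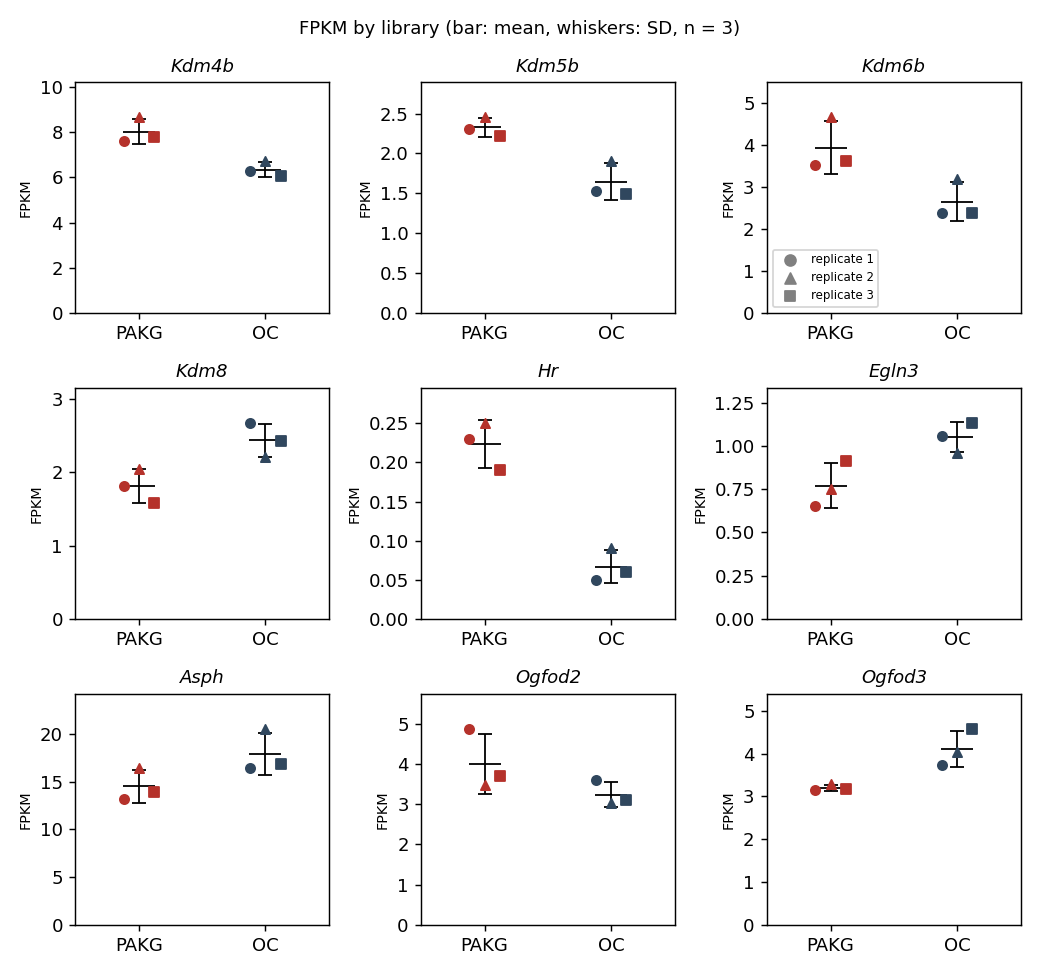
FPKM of 9 dioxygenase genes in the 3 PAKG and 3 OC libraries, with the mean and SD (n = 3) and a marker shape per replicate number. PAKG lies above OC without overlap for Kdm4b, Kdm5b, Kdm6b and Hr and below it for Kdm8, Egln3, Asph and Ogfod3, while Ogfod2 overlaps, and replicate 2 (triangles) is the highest of its group for Kdm4b, Kdm5b, Kdm6b, Hr and Asph.

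Replicate 2 stood apart in both groups in a way that followed transcript length. Among the 18 tested members whose longest annotated transcript is at least 5 kb, replicate 2 exceeded the mean of replicates 1 and 3 in 18 of 18 genes in either group, by a median of 0.32 on the log2 scale in PAKG and 0.32 in OC. Among the 15 members under 3 kb the median difference was -0.09 in PAKG and -0.14 in OC. Across the 42 members Pearson's r between this difference and log2 length was 0.71 in PAKG and 0.74 in OC, and over all genes with an annotated length it was 0.32 and 0.36 (a description across genes of the same libraries). TET and KDM genes are mostly long, and ALKBH genes mostly short. The shift was present in both groups. With the block, in which each replicate number has its own level, the error was smaller: for Kdm6b and Asph the SE was 0.06 and 0.04, against 0.16 and 0.12 without the block.

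**Figure D5:**
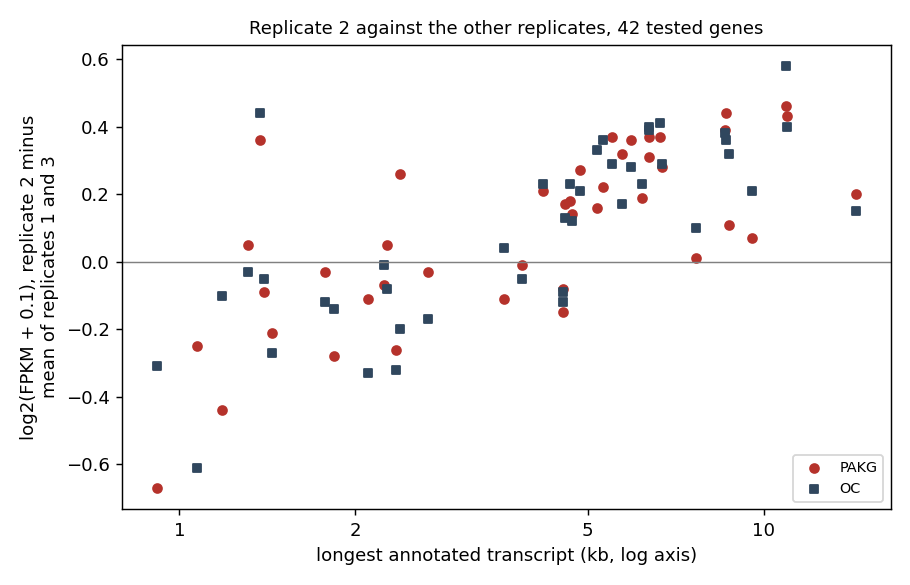
Difference of replicate 2 from the mean of replicates 1 and 3 in log2(FPKM + 0.1), against the length of the longest annotated transcript (kb, log axis), for 42 tested dioxygenase genes in PAKG (red circles) and OC (dark squares) libraries. All 18 genes of 5 kb or more lie above zero in both groups, and most genes under 3 kb lie at or below it.

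The partners of the oxygen sensors gave a mixed picture. The HIF system list held HIF subunits and the pVHL ligase, and besides these Siah1a, Siah2, P4htm, Ube2s and Usp20. Of its 12 tested genes, none passed without the block, where 14.7% of all genes did. An unadjusted p under 0.05 was found for 1 of them, and for 28.8% of all genes. With the block 3 were lower (Hif1a, Siah2 and Ube2s), where 29.5% of all genes passed (17.1% lower). The list median was -0.08. Hif1a was at 21.87 to 26.24 FPKM in PAKG libraries and 25.57 to 28.48 FPKM in OC libraries (log2 fold change -0.18, limma adjusted p = 0.243, and 0.0381 with the block). Epas1, which encodes HIF-2α, was at 0.02 to 0.08 FPKM. Of 16 tested HIF target genes, 3 rose and 3 fell, where 14.7% of all genes passed (5.97% higher and 8.73% lower), with a list median of 0.01 against -0.032 over all genes. With the block 4 were higher and 5 lower, where 29.5% of all genes passed; Bnip3l was the gene added to the higher ones and Ldha and Ddit4 those added to the lower ones. Ndrg1, a stress-response gene, fell most clearly, to 4.80, 5.17 and 5.11 FPKM in PAKG libraries, against 9.09, 8.39 and 8.59 FPKM in OC libraries (log2 fold change -0.78, SE 0.07, limma adjusted p = 0.000821). Slc2a1, the glucose transporter GLUT1, and Pgk1, of glycolysis, fell by 0.54 and 0.44 on the log2 scale (limma adjusted p = 0.00235 and 0.00984). The 3 that rose were Vegfa, the angiogenic growth factor, and the glycolysis regulators Pfkfb4 and Pfkfb3, by 0.41, 0.45 and 0.52 (limma adjusted p = 0.0215, 0.0312 and 0.0427). With TPM scaling 2 of the list were higher and 3 lower.

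The factors that place, read or repair the marks these dioxygenases act on were counted in 2 lists. Of 18 tested genes of DNA methylation, 3 fell and none rose, where 14.7% of all genes passed (8.73% lower), and the list median was -0.08. The 3 were Uhrf1 and Dnmt1, which maintain methylation after replication, and the glycosylase Neil3. Uhrf1 was at 38.64, 45.96 and 39.87 FPKM in PAKG libraries and 68.52, 70.96 and 61.66 FPKM in OC libraries (log2 fold change -0.69, SE 0.09, limma adjusted p = 0.003). Dnmt1 fell by 0.61 and Neil3 by 0.56 (limma adjusted p = 0.0144 and 0.0133). With the block 2 were higher and 4 lower, the higher ones being Mbd2 and Cxxc5, where 29.5% of all genes passed. With TPM scaling it was 2 higher and 3 lower.

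Of 34 tested genes of histone methyltransferases and their complexes, 5 fell and none rose, a share equal to the 14.7% of all genes that passed (8.73% lower), and the list median was -0.04. Ezh2 and Suz12, core subunits of Polycomb complex 2 that places the lysine 27 mark removed by Kdm6a and Kdm6b, fell by 0.51 and 0.45 on the log2 scale (limma adjusted p = 0.00341 and 0.0122), and their partner Rbbp7 by 0.27 (limma adjusted p = 0.0471). Ezh2 was at 10.79, 9.78 and 10.32 FPKM in PAKG libraries and 14.37, 15.30 and 14.49 FPKM in OC libraries. Suv39h1, which trimethylates lysine 9, and Nsd2, which dimethylates lysine 36, fell by 0.54 and 0.60 (limma adjusted p = 0.00342 and 0.00677). With the block 9 were lower and 1 (Setd1b) was higher, where 29.5% of all genes passed. Dnmt1, Uhrf1, Neil3, Ezh2 and Suv39h1 are known to be higher in dividing cells, and the proliferation markers given above fell in the same libraries by a list median of 0.71 on the log2 scale. The part of that in these 2 lists was not tested.

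Of 14 tested genes of the flavin-dependent demethylases and demethylase complexes, 1 rose: Rcor2, a corepressor partner of Kdm1a, which had 14.74, 13.68 and 15.86 FPKM in PAKG libraries and 7.62, 6.42 and 6.30 FPKM in OC libraries (log2 fold change 1.11, SE 0.10, limma adjusted p = 0.000657). Kdm1a itself, which works with flavin and not with 2-oxoglutarate, was at 12.19 to 14.22 FPKM in PAKG libraries and 12.20 to 13.34 FPKM in OC libraries. With the block 2 of the list were higher (Rcor2 and Pagr1a) and 1 lower (Paxip1), and the list median was 0.03. Over all genes tested, 14.7% passed without the block and 29.5% with it. Of 20 m6A writers and readers, the counterparts of Fto and Alkbh5, none passed without the block, where 14.7% of all genes did. An unadjusted p under 0.05 was found for 5 of them, and for 28.8% of all genes. Mettl16 and Hnrnpc were lower with the block, where 29.5% of all genes passed, and the list median was -0.13.

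Of 23 tested enzymes and carriers that make or use 2-oxoglutarate, succinate, fumarate or 2-hydroxyglutarate, 4 fell and none rose, where 14.7% of all genes passed (8.73% lower), and the list median was -0.08. Psat1, a serine-synthesis aminotransferase that yields 2-oxoglutarate, was at 34.38, 34.59 and 35.66 FPKM in PAKG libraries and 60.89, 55.46 and 61.87 FPKM in OC libraries (log2 fold change -0.77, SE 0.07, limma adjusted p = 0.000686). Idh3a, Got2 and Got1, of the citric acid cycle and the aspartate shuttle, fell by 0.32, 0.25 and 0.34 (limma adjusted p = 0.0163, 0.0321 and 0.0402). Idh1 was at 65.21 to 71.19 and 61.91 to 66.06 FPKM in PAKG and OC libraries, and Ogdh at 39.91 to 43.17 and 35.87 to 43.35 FPKM. With the block 7 of the list were lower and 1 (Sdhc) higher, where 29.5% of all genes passed.

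Among 14 tested genes of iron and ascorbate supply, the cofactors of these enzymes, 1 rose and 1 fell, where 14.7% of all genes passed, and the list median was -0.02. With the block 2 were higher (Hmox1 and Slc23a2) and 4 lower (Tfrc, Slc25a37, Slc25a28 and Pcbp2), where 29.5% of all genes passed. Hmox1, which releases iron from heme, was at 45.61, 39.62 and 45.21 FPKM in PAKG libraries and 34.02, 31.46 and 34.68 FPKM in OC libraries (log2 fold change 0.38, SE 0.08, limma adjusted p = 0.0209). Tfrc, the transferrin receptor, fell by 0.55 (limma adjusted p = 0.0296), and did not pass with TPM scaling. Slc23a2, an ascorbate transporter, was at 6.02, 8.50 and 6.23 FPKM in PAKG libraries and 4.37, 5.89 and 4.99 FPKM in OC libraries, with every PAKG library above every OC library. Its log2 fold change was 0.43 (SE 0.16, limma adjusted p = 0.12, and 0.0068 with the block).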

How the data were processed

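RNA-Seq tables of 6 libraries of MC3T3-E1 cells were used, 3 of the PAKG and 3 of the OC group, grouped by their labels. For each library the authors deposited a table of FPKM rounded to 2 decimals. The build GRCm38 and the tools HISAT2, StringTie, DESeq2, cutadapt and FastQC appear in the submitters' processing notes, with no versions; the annotation release and whether counting used the strand of the stranded kit stay unstated in the labels and the paper. FPKM are no counts, so no count model was fitted. Coordinates and lengths came from GENCODE M21 (GRCm38), in which 99.76% of gene IDs were found, and upstream sequences from RefSeq (GRCm38.p6), in which 37 of the 46 genes had an entry. No protein sequence was used here.

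The test was limma 3.58.1 in R 4.3.3 (lmFit, then eBayes with a mean-variance trend) on log2(FPKM + 0.1) for the 12590 genes averaging 0.5 FPKM or more, 2-sided, and p-values were adjusted over all of them after Benjamini and Hochberg. This scale understates the fold change of low genes. Members, classes, partner lists and markers were chosen with earlier results of these data known, so no list was tested as a set. Text values are given for called members, the highest member of each class, members that show how a family divides or that passed with the block, and up to 3 called genes of smallest adjusted p per partner list; other list genes were named after their values were seen.

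Both groups carry replicate numbers 1 to 3 in the labels. Deviations from group means correlated at 0.24, 0.43 and 0.192 between libraries with the same number, all above the minimum of 0.1. Between others they correlated at -0.312 to 0.138, and the 0.138, of PAKG replicate 3 with OC replicate 1, was above that minimum as well. Each library correlated most with the one of its own number, most clearly for replicate 2. No source says what the numbers mark. The number was fitted as a replicate block, and its value is printed where it changes the call of a member or the count of a list. Pearson's r over genes lay between 0.980 and 0.989 for libraries of 1 group and between 0.969 and 0.978 for libraries of different groups. Depth was estimated from steps in low FPKM of short genes within a bounded search, and whole reads were not recovered. The match to such steps was weak, with scores of 0.1 to 0.163 where a full match would give 1. Other alternatives were pseudocounts of 1 and 0.01, no filter or 1 FPKM, TPM and median-ratio scaling, no trend, each library left out, and replicate 2 left out of both groups. The calling step was tested on simulated data. Python 3.11.15 (matplotlib 3.10.9, numpy 2.4.6, pandas 2.3.3) served for tables and figures.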

Additional observations from a re-analysis of the deposited data

How the results depend on the processing

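Of the 42 tested members, 2 passed in the fit described above, both higher. With no filter the 1 member that passed was Hr, which is not among the 42. In that fit Kdm4b and Kdm5b had limma adjusted p of 0.066 and 0.102. With a filter of 1 FPKM 4 passed (3 higher, 1 lower), and with TPM scaling 0. Without the mean-variance trend 1 passed, and at a fold change of at least 2 also 0. Of all genes, 1831 of 11306 passed with that filter, 1635 of 12590 with TPM scaling, 1664 without the trend and 182 at 2-fold. With the replicate block 6 members passed (4 higher, 2 lower), where 3711 of 12590 genes did. It changed the call of no member besides Kdm6b, Ogfod2, Asph and Ogfod3. The block joined to median-ratio or TPM scaling, both added after the data were seen, gave 7 members (5 higher, 2 lower). Among all 12590 genes, those settings gave 3673 and 3334 calls. Without replicate 2 of both groups 6 members passed (4 higher, 2 lower), where 2751 of 12592 genes did. Leaving out 1 library gave 0 to 3 calls, 0 to 3 higher and 0 to 2 lower. In the KDM class, 1 (Hr) passed with no filter, 0 with TPM scaling, 1 without trend, 4 without replicate 2 of both groups, 0 at 2-fold and 0 to 3 with 1 library left out. In the ALKBH class, 1 passed without replicate 2 of both groups, 1 with the block and median-ratio scaling, and 0 to 1 with 1 library left out. Among the other dioxygenases, 1 passed with the filter of 1 FPKM, 3 with the block, 3 and 4 with the block joined to median-ratio and TPM scaling, 1 without replicate 2 of both groups and 0 to 1 with 1 library left out. The counts of the TET, JmjC hydroxylase and oxygen sensing classes stayed at 0 in every setting run. The cause of these changes was not tested.

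Over all settings 9 of the 42 tested members passed at least once and 33 never did. Hr, not among the 42, passed with no filter. The sign changed in at least 1 setting for 17 members, of which the largest change in the fit described above was 0.13 in size, and for 3 of them (Alkbh4, Egln1 and Kdm4c) under a scaling. The log2 fold change of Tet3 was 0.06 without OC replicate 2, that of Egln2 0.05 without OC replicate 1, and that of Kdm5a 0.06 without PAKG replicate 1 and 0.07 without OC replicate 2, with adjusted p of 0.813 to 0.883 in limma. With any 1 library left out the values ran from -0.28 to 0.06 for Tet3, from -0.16 to 0.05 for Egln2 and from -0.20 to 0.07 for Kdm5a. Over all genes, calls numbered 1850, against 1325 with no filter, 3711 with the block, 2751 without replicate 2 of both groups and 831 to 2227 with 1 library left out. With 1 library left out, the calls among partner lists ran from 2 to 5 for HIF target genes (0 to 2 higher, 2 to 3 lower), 2 to 5 for DNA methylation (2 to 3 lower), 3 to 6 for histone methyltransferases (3 to 5 lower), 1 to 4 for 2-oxoglutarate enzymes and 0 to 2 for iron and ascorbate supply. With 3 libraries per group and most members changed by less than 0.2 on the log2 scale, small differences could not be told from zero at this spread.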
